A study of Oryza sativa with 2 samples.

Results

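The loci described here are 100 of the 1349 intermediate-size RNA loci that were listed for rice (Oryza sativa) in 2 sequencing libraries. They are the nuclear loci of at least 100 and under 200 nt that lie in small clusters, where a cluster is a chain of 2 to 4 loci on the same chromosome and strand with gaps of at most 500 nt. The rule that picked them used position and length alone, but it was set with earlier results of these data known. It counts only neighbours listed in these libraries. The 3 chromosome regions with stretches that resemble organelle DNA were left out. RNA of 50 to 500 nt was ligated to adaptors at both ends and sequenced on the 454 platform without amplification. The stage 2 library is labelled as anther, pistil and "grouting embryo", and the stage 1 library as coleoptiles, "radicals", shoot and tillering leaves (quoted words as the labels spell them). The labels name neither the cultivar nor any treatment, and do not say whether the tissues of a stage were pooled before extraction. With a single library for either stage there is no error between replicates, and what is compared is 1 library with 1 other. In bulk RNA, fewer cells of a type and less RNA per cell cannot be told apart.

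The size range includes the box H/ACA small nucleolar RNAs (snoRNAs). These fold into hairpins joined by a hinge, and guide the conversion of uridine to pseudouridine in ribosomal RNA together with a set of core proteins. The other main family, the box C/D snoRNAs, are usually shorter and guide methylation of the ribose. Plant snoRNA genes often lie close together and are transcribed as a single precursor from which each RNA is cut, so neighbouring loci on the same strand are a familiar arrangement. Which member belongs to which family was not determined, because neither sequence nor annotation of the files' genome build was used here, so the genes they lie in are not stated either. Locus names and positions are the authors' own.

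The stage 2 list held 117798 reads in 1163 loci, and the stage 1 list 80651 reads in 838 loci. Members took 17237 reads in stage 2, or 14.6% (exact Clopper-Pearson 95% interval 14.4 to 14.8), and 8881 in stage 1, or 11.0% (10.8 to 11.2). Their ratio of reads per 1000000 library reads (RPM), stage 2 over stage 1, was 1.33 (exact conditional binomial 95% interval 1.30 to 1.36). The direction of this sum depends on the scaling. The median locus of the whole series was itself at 1.39 (0.47 on the log2 scale), and relative to it the sum was at 0.958 (0.933 to 0.982). Any single ratio between 1 and 1.39 turns round in the same way. A sum weighs loci by their reads and a median does not, so these are unlike measures. Scaled in the same way, the sum of the whole series was at 0.721. The median ratio of the 80 members with at least 20 reads over both libraries was 1.58. Of these members, 48 lay above 1.39 and 32 below. All intervals cover counting error only.

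Members were found on all 12 nuclear chromosomes, with 53 on the plus and 47 on the minus strand. Chromosome 4 held the most, 23, followed by chromosome 2 with 15 and chromosome 3 with 14. The 100 members lay in 55 clusters: 29 of 2 loci, 14 of 3 and 12 of 4. In 26 clusters, with 66 members, every locus was a member. The other 29 clusters, with 34 members, also held 48 partners outside the length range, of which 41 were 70 to 99 nt, 5 were shorter and 2 were 200 nt or longer.

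Lengths were unevenly spread over the range. The median was 138 nt (quartiles 128 and 148), and 71 members were at least 120 and under 160 nt. A smaller group of 13 was under 110 nt, only 4 followed below 120 nt, and 0 were 180 nt or longer. At the lower limit, the members JNnc_loci0171 and JNnc_loci1039 were 100 nt long with 305 and 410 reads in stage 2 and 109 and 133 in stage 1, while JNnc_loci0350, just outside at 99 nt, had 97 reads in stage 2 and 63 in stage 1. At the upper limit the longest member was JNnc_loci0652, just under 180 nt, with 6 reads in stage 2 and 0 in stage 1. The next longer locus of a small cluster, JNnc_loci0852 at 201 nt, had 2 reads in stage 2 and 0 in stage 1.

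**Figure D1:**
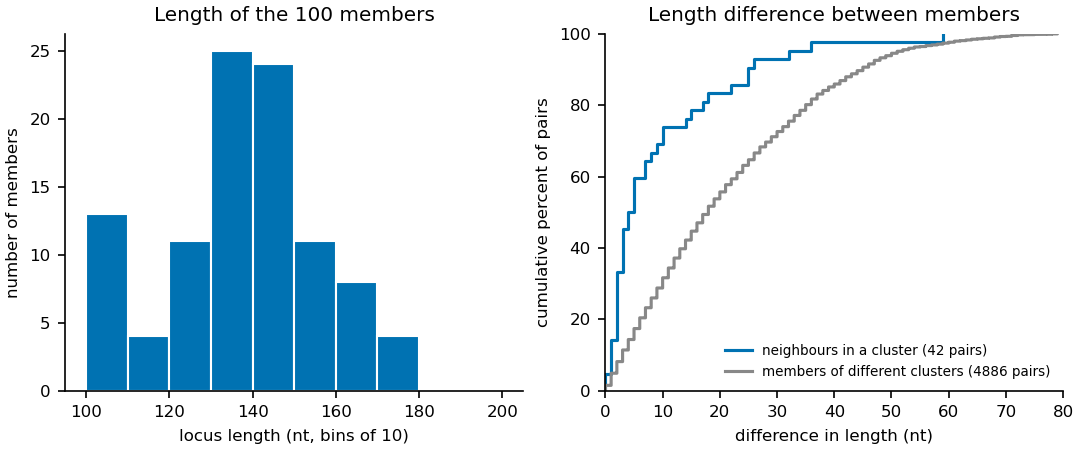
Left, the number of members by length in bins of 10 nt, with 71 of the 100 members between 120 and 160 nt. Right, the cumulative percentage of pairs by difference in length (nt): 59.5% of the 42 pairs of neighbouring members in a cluster differ by at most 5 nt, against 17.4% of the 4886 pairs of members from different clusters.

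Neighbouring members were close in length. The 42 pairs of adjacent members differed by a median of 4.5 nt, beside 18 nt for the 4886 pairs of members from different clusters. The difference was at most 5 nt in 25 of the 42 pairs. In JNnc_loci0468, JNnc_loci0469 and JNnc_loci0470 the lengths were 128, 127 and 127 nt, and JNnc_loci0126 and JNnc_loci0127 were both 136 nt. The spaces between adjacent members had a median of 180 nt (quartiles 92.2 and 247), from 10 nt up to the 500 nt that the rule allows, which JNnc_loci0273 and JNnc_loci0274 reached. Members and partners of another length stood a median of 111 nt apart. Where a cluster of 3 or 4 loci held a single member, that member was the first locus from the 5′ end in 6 of 12 clusters, the last in 4 and in the middle in 2.

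The members were on the whole well covered. The median was 137 reads over both libraries (quartiles 34.5 and 348.5), and 80 of 100 had at least 20 reads, beside 35.8% of all loci. Both libraries listed 89 members (89.0%, Clopper-Pearson interval 81.2 to 94.4), where the background over all 1349 loci was 48.3%. Of the 128 small-cluster loci of 70 to 99 nt, 107 had at least 20 reads and 118 were in both lists. Clusters of 5 or more held 66 loci of the members' length. Of these, 51 had at least 20 reads and 64 were in both lists. Of the 232 single nuclear loci of that length, 113 had at least 20 reads and 137 were in both lists. High coverage was thus shared with other clustered loci and was not particular to the members. All 80 members with 20 or more reads were in both lists, and so were 98.2% of the 389 other nuclear loci with 20 or more. Of the 3 members with 10 to 19 reads 3 were in both lists, beside 73.9% of 69 other nuclear loci. At 4 to 9 reads it was 4 of 9 members, beside 33.7% of 163 others, and at 2 to 3 reads 2 of 8 members, beside 8.04% of 560 others. At 20 or more reads the shares were thus close. Below 20 reads the share was higher for members, but on few members in each range. The other nuclear loci include single loci as well as clustered ones.

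Members of a single list were weak. In stage 2 alone there were 5, the strongest being JNnc_loci0571 with 9 reads, followed by JNnc_loci0652 with 6, JNnc_loci0664 with 4, and JNnc_loci0773 and JNnc_loci0888 with 3 each. The 6 found in stage 1 alone had 2 to 4 reads: JNnc_loci0206 and JNnc_loci0209 (162 nt, 4 reads each), JNnc_loci0866 and JNnc_loci0956 (125 nt, 3 reads each), and JNnc_loci1137 and JNnc_loci1138 (103 and 113 nt, 2 reads each). For each of these 6, a locus on the chloroplast chromosome or in the 3 regions left out was equal to it in length and in both counts. Without them no member was listed in stage 1 alone. A count of 0 still allows 25.5 RPM in stage 2 and 37.2 RPM in stage 1, the value of 3 reads.

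No member shared its length and both counts with another locus when loci with 0 in a library and fewer than 20 reads were set aside. Among the 403 other loci with at least 20 reads, 57 (14.1%) did. How reads with several matching positions were counted is unknown. The part of such counting in these values was not tested.

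Across the 80 members with at least 20 reads, the ratio ran from 0.529 to 7.53, and the median log2 ratio was 0.66, beside 0.47 over the 483 such loci of the series. A ratio of at least 2 was found for 33 members (41.25%, background 32.9%), and a ratio of 0.5 or less for 0 (background 11.6%). The next part of the range held JNnc_loci0987 and JNnc_loci0548, at 0.529 and 0.531, so the absence of lower calls rests on a narrow margin. Scaled to the median locus, 11 members were at least 2-fold higher (background 18.2%) and 5 at least 2-fold lower (background 22.2%). Those 5 were the members with the lowest ratios, JNnc_loci0987, JNnc_loci0548, JNnc_loci1028, JNnc_loci0291 and JNnc_loci0089. Ratios above 1 were found for 65 of the 80, or 81.25% (background 64.2%). The counting interval lay above 1 for 48 members, or 60% (background 48.4%), and below 1 for 7, or 8.75% (background 22.8%).

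**Figure D2:**
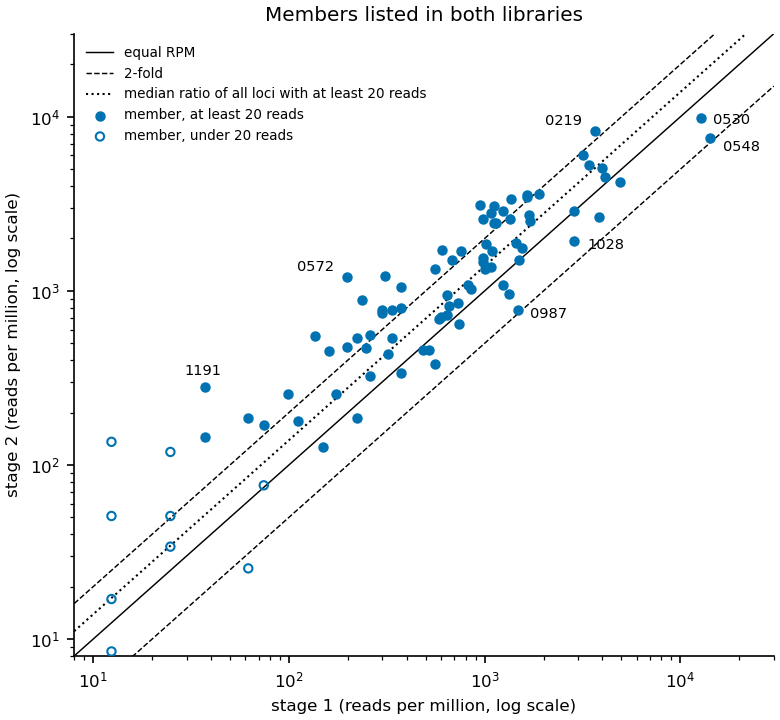
Stage 2 against stage 1 RPM for the 89 members listed in both libraries, both axes on a log scale; filled points have at least 20 reads over both libraries, open points fewer. The solid line marks equal RPM, the dashed lines 2-fold, and the dotted line the median ratio of 1.39; 33 filled points lie on or above the upper dashed line and 0 below the lower one.

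Other parts of the lists with the most similar loci gave different spreads. Of the 128 small-cluster loci of 70 to 99 nt, 107 had at least 20 reads; 34 of these were higher in stage 2 by at least 2-fold and 7 were lower, with a median log2 ratio of 0.58. Their summed ratio was 1.36 (1.33 to 1.39), near the 1.33 of the members. The 66 loci of the members' length in clusters of 5 or more included 51 with at least 20 reads, 18 higher and 5 lower, with a median of 0.59. Single nuclear loci of that length stood apart, with 25 of 113 higher, 20 lower, a median of -0.05 and a summed ratio of 0.697 (0.687 to 0.706). That sum lay below their median ratio of 0.964, as loci with many reads weigh most in a sum. How far a few loci carried it was not tested. The middle range of log2 ratios (lower to upper quartile) was 0.21 to 1.23 for members and -0.21 to 1.10 for small-cluster loci of 70 to 99 nt. No test of these differences was made, because loci are not replicates.

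By length, the members of 140 nt to under 160 nt had the highest share of calls, with 17 of 32 at least 2-fold higher, beside 32.9% of the 76 loci of that length in the series, and a median log2 ratio of 1.08. Among the shorter ones, 11 of 30 members from 120 nt to under 140 nt were so (39.7% of 78 loci of that length), with a median of 0.57, and 3 of 11 below 120 nt (33.3% of 42), with a median of 0.35. The 7 members of 160 nt or more had 2 calls (19.4% of 31 loci under 180 nt) and a median of 0.32. The loci of each length include the members. Summed reads gave a flatter picture, with a ratio of sums of 1.39 (1.34 to 1.45) from 140 nt to under 160 nt and 1.34 (1.28 to 1.41) in the range below. A single locus, JNnc_loci0548 (140 nt), had 888 of the 6659 stage 2 reads and 1145 of the 3272 stage 1 reads of the 140 nt range.

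The 2 members with most reads both had ratios below 1. At JNnc_loci0530 (165 nt, chromosome 4, 18305858 to 18306022, plus strand) the counts were 1158 in stage 2 and 1024 in stage 1, a ratio of 0.774 (0.711 to 0.843). At JNnc_loci0548 (140 nt, chromosome 4, 22126287 to 22126426, minus strand) the counts were 888 in stage 2 and 1145 in stage 1, a ratio of 0.531 (0.486 to 0.580). These 2 loci held 11.9% of the members' reads in stage 2 and 24.4% in stage 1, and without them the summed ratio was 1.55 (1.51 to 1.59). JNnc_loci0819 (101 nt, chromosome 6), with 500 reads in stage 2 and 395 in stage 1, was also below 1 at 0.867 (0.758 to 0.991).

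Other abundant members went the other way or showed little difference. At JNnc_loci0219 (104 nt, chromosome 2, 21018407 to 21018510) stage 2 gave 972 reads and stage 1 gave 294, a ratio of 2.26 (1.98 to 2.59). At JNnc_loci0319 (155 nt, chromosome 3, 7102812 to 7102966) the counts were 709 in stage 2 and 256 in stage 1, at 1.90 (1.64 to 2.20). JNnc_loci0608 (118 nt, chromosome 4) had 597 and JNnc_loci0090 (135 nt, chromosome 1) 531 reads in stage 2, with 321 and 331 in stage 1. JNnc_loci0608 was at 1.27 (1.11 to 1.46), and the interval of JNnc_loci0090 at 1.10 (0.956 to 1.26) included 1. Of the 8 members with most reads in each library, 7 were in both sets of 8. Per 100 nt of length the order changed: in stage 2 JNnc_loci0219 was highest at 7934 RPM per 100 nt, ahead of JNnc_loci0530 at 5958 and JNnc_loci0548 at 5385, while in stage 1 JNnc_loci0548 was highest at 10141, ahead of JNnc_loci0530 at 7695 and JNnc_loci0819 at 4849.

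Among members with at least 20 reads, the 5 highest ratios belonged to loci of moderate or low coverage. At JNnc_loci1191 (130 nt, chromosome 11, 23511313 to 23511442) the counts were 33 in stage 2 and 3 in stage 1, a ratio of 7.53 (2.36 to 38.4). At JNnc_loci0572 (137 nt, chromosome 4, 25201915 to 25202051) the counts were 142 in stage 2 and 16 in stage 1, a ratio of 6.08 with a narrower interval (3.61 to 10.9). JNnc_loci0899 (148 nt, chromosome 7) had 65 reads in stage 2 and 11 in stage 1, at 4.05 (2.12 to 8.50). JNnc_loci0832 (154 nt, chromosome 7) had 143 in stage 2 and 25 in stage 1, at 3.92 (2.55 to 6.25), and JNnc_loci0685 (146 nt, chromosome 5) 17 in stage 2 and 3 in stage 1, at 3.88 (1.12 to 20.7). Of the 80 members, 10 had an interval wholly above 2 (12.5%, background 14.5%). At the low end, JNnc_loci0987 (138 nt, chromosome 8) had 92 reads in stage 2 and 119 in stage 1, at 0.529 (0.399 to 0.701), and JNnc_loci1028 (138 nt, chromosome 9) 228 in stage 2 and 232 in stage 1, at 0.673 (0.558 to 0.811). JNnc_loci0291 (104 nt, chromosome 3), with 45 reads in each library, was at 0.685, with an interval that included 1 (0.443 to 1.06).

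The 10 clusters of 3 or 4 loci made of members alone held 34 members, on chromosomes 1, 3, 4, 7 and 9. Chromosome 4 carried 6 of the 10. In 8 of the 10 the same locus had most reads in both libraries, while ratios within a cluster often differed.

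On chromosome 4, JNnc_loci0527 to JNnc_loci0530 (18304772 to 18306022, plus strand) had the most reads of any cluster's members. From the 5′ end they had 396, 97, 92 and 1158 reads in stage 2 and 110, 53, 27 and 1024 reads in stage 1. Their ratios were 2.46 (1.99 to 3.07), 1.25 (0.888 to 1.79), 2.33 (1.5 to 3.73) and 0.774 (0.711 to 0.843). The last locus, which dominated the cluster with 66.4% of its stage 2 and 84.3% of its stage 1 reads, was thus the only one below 1, and its interval did not overlap those of the other 3.

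Further along the plus strand of chromosome 4, JNnc_loci0550 to JNnc_loci0553 (22179440 to 22180542) were more even. Their lengths were 128 to 133 nt, their reads 63, 173, 161 and 128 in stage 2 and 18, 79, 87 and 66 in stage 1. The first locus was at 2.40 (1.40 to 4.30), and the others at 1.5, 1.27 and 1.33. All 4 intervals overlapped.

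JNnc_loci0570, JNnc_loci0571 and JNnc_loci0572 (25201102 to 25202051, plus strand) together had the highest ratio of the 10 clusters, with 204 reads in stage 2 and 29 in stage 1, or 4.82 (3.25 to 7.37). The single loci had 53, 9 and 142 reads in stage 2 and 13, 0 and 16 in stage 1. JNnc_loci0570 was at 2.79 (1.5 to 5.58) and JNnc_loci0572 at 6.08 (3.61 to 10.9). JNnc_loci0571 had too few reads for a call, though its interval lay above 1, with a lower limit of 1.35.

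The remaining 3 arrays of chromosome 4 differed in coverage. JNnc_loci0607 to JNnc_loci0610 (32155589 to 32156522, minus strand) had 1061 reads in stage 2 and 554 in stage 1, most of them at JNnc_loci0608. In order of coordinate their ratios were 1.0 (0.790 to 1.27), 1.27 (1.11 to 1.46), 1.55 and 2.51 (1.58 to 4.12), so that along the strand from the 5′ end, where JNnc_loci0610 lies, each ratio was lower than the one before. The interval of JNnc_loci0610 lay above those of JNnc_loci0608 and JNnc_loci0607, and the other intervals overlapped with their neighbours' in this order. JNnc_loci0468 to JNnc_loci0470 (1012241 to 1012865, minus strand) had 56, 124 and 21 reads in stage 2 and 16, 30 and 9 in stage 1, with ratios of 2.40, 2.83 and 1.60 and a summed ratio of 2.50 (1.85 to 3.44). JNnc_loci0579 to JNnc_loci0582 (27053997 to 27054847, plus strand) were carried by the first, longer locus, with 76 reads in stage 2 and 60 in stage 1. The 3 loci after it, of 121 to 123 nt, had 14, 6 and 2 reads in stage 2 and 2, 1 and 1 in stage 1, too few for a call. Of these only JNnc_loci0580 had an interval above 1, from 1.10 to 43.4.

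**Figure D3:**
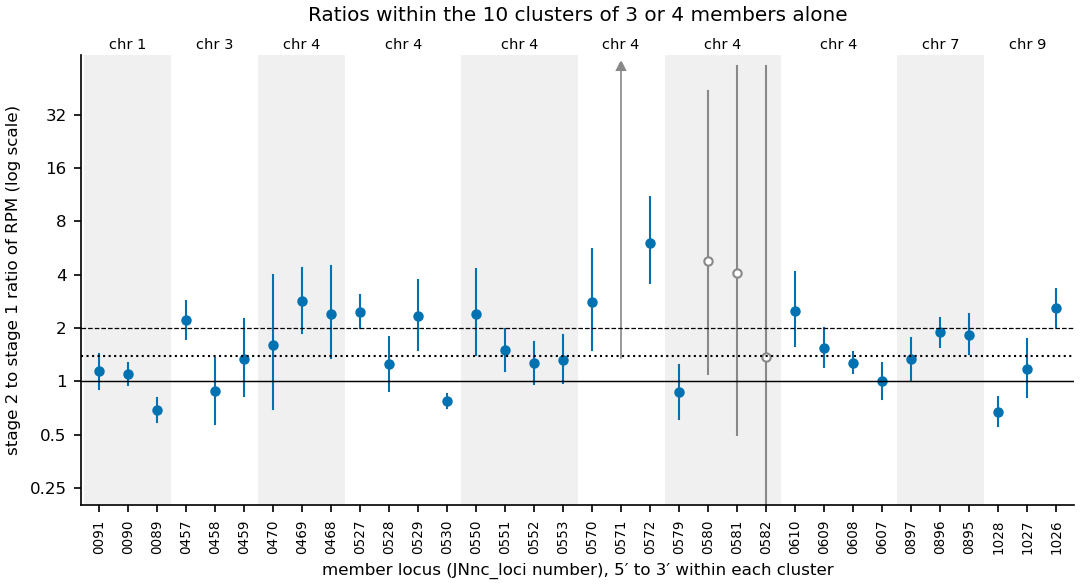
Stage 2 to stage 1 ratio of RPM (log scale) for the 34 members of the 10 clusters of 3 or 4 members alone, in 5′ to 3′ order, with the exact 95% interval for counting error as a bar. Open grey points have fewer than 20 reads, the triangle is JNnc_loci0571 with 0 stage 1 reads, bars are clipped at the frame, and the lines mark 1 (solid), 1.39 (dotted) and 2 (dashed); JNnc_loci0530, JNnc_loci0089 and JNnc_loci1028 are the points whose bars lie below 1.

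Arrays on other chromosomes showed the same mix. JNnc_loci0089, JNnc_loci0090 and JNnc_loci0091 (chromosome 1, 31557172 to 31557844, minus strand) had 313, 531 and 208 reads in stage 2 and 311, 331 and 125 in stage 1. JNnc_loci0089, at the 3′ end, was at 0.689 (0.587 to 0.809), apart from its neighbour JNnc_loci0090 at 1.10 (0.956 to 1.26), and JNnc_loci0091 was at 1.14. JNnc_loci1026, JNnc_loci1027 and JNnc_loci1028 (chromosome 9, 4391074 to 4392155, minus strand) had 328, 81 and 228 reads in stage 2 and 87, 47 and 232 in stage 1, with ratios of 2.58 (2.03 to 3.31), 1.18 (0.814 to 1.73) and 0.673 (0.558 to 0.811). Here the locus with most reads changed, being JNnc_loci1026 in stage 2 and JNnc_loci1028 in stage 1.

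JNnc_loci0457, JNnc_loci0458 and JNnc_loci0459 (chromosome 3, 34209449 to 34210297, plus strand) were 148 to 153 nt long and almost evenly spaced, 200 and 197 nt apart. They had 291, 54 and 51 reads in stage 2 and 90, 42 and 26 in stage 1. Only the first locus, at 2.21 (1.74 to 2.84), had an interval above 1, the others being at 0.880 and 1.34.

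On chromosome 7, JNnc_loci0895, JNnc_loci0896 and JNnc_loci0897 (25017798 to 25018487, minus strand) had 220, 422 and 158 reads in stage 2 and 82, 153 and 81 in stage 1. Their ratios of 1.84, 1.89 and 1.34 were close, and each interval lay above 1. A cluster of 2 members on the same strand, JNnc_loci0898 and JNnc_loci0899, lay 921 nt away. JNnc_loci0898 was at 1.29 (1.03 to 1.63) and JNnc_loci0899 at 4.05 (2.12 to 8.50), so the 2 loci of that pair were apart although the 5 loci together stood at 1.67 (1.5 to 1.87) on 1086 reads in stage 2 and 444 in stage 1.

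**Figure D4:**
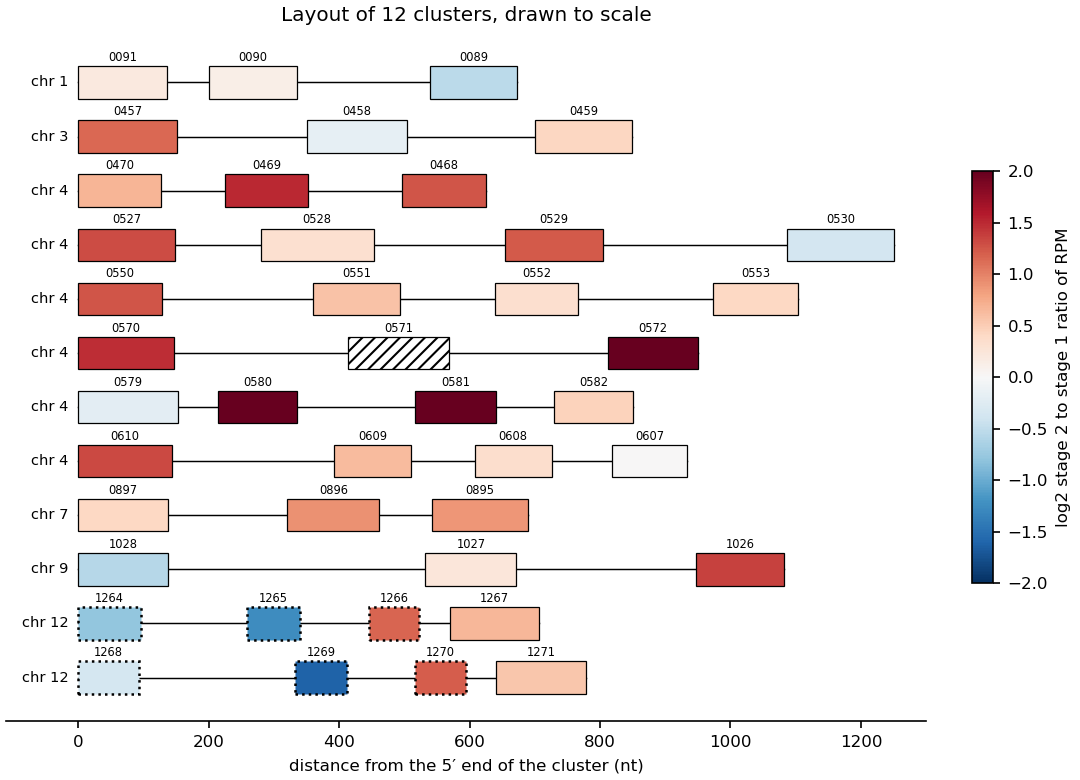
Layout of the 10 clusters of members alone and of the repeated pair of clusters on chromosome 12, drawn to scale from the 5′ end of each (x axis, nt). Boxes are loci coloured by log2 stage 2 to stage 1 ratio of RPM (limited to -2 to 2), dotted outlines are partners under 100 nt, and the hatched box had 0 stage 1 reads; the 2 chromosome 12 clusters both run blue, blue, red, red.

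The 16 clusters that were pairs of members held both like and unlike ratios. In JNnc_loci0229 and JNnc_loci0230 (131 and 157 nt, chromosome 2, 23762750 to 23763098) both loci were high in stage 2, with 365 and 362 reads in stage 2 and 76 and 90 in stage 1, or ratios of 3.29 (2.56 to 4.27) and 2.75 (2.18 to 3.51). JNnc_loci0332 and JNnc_loci0333 (chromosome 3) were likewise at 2.82 and 2.15, on 202 and 94 reads in stage 2 and 49 and 30 in stage 1. In JNnc_loci0259 and JNnc_loci0260 (chromosome 2) both loci were below 1, at 0.716 (0.545 to 0.941) and 0.876 (0.669 to 1.15), with 113 and 128 reads in stage 2 and 108 and 100 in stage 1. It was the only cluster with 2 or more members of at least 20 reads in which all of them were below 1.

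Other pairs were split. JNnc_loci0178 and JNnc_loci0179 (146 and 141 nt, chromosome 2, 4182926 to 4183294) each had 339 reads in stage 2 but 230 and 100 in stage 1, giving ratios of 1.01 (0.851 to 1.2) and 2.32 (1.85 to 2.93). Equal stage 2 counts thus went with unequal stage 1 counts. JNnc_loci0015 and JNnc_loci0016 (chromosome 1) were at 1.17 (0.842 to 1.64) and 2.39 (1.71 to 3.41), and JNnc_loci0374 and JNnc_loci0375 (chromosome 3) at 2.18 (1.79 to 2.68) and 1.13 (0.793 to 1.63). Among pairs with at least 20 reads at each locus, the widest gap was between JNnc_loci1191, described above, and its neighbour JNnc_loci1192. The latter had 40 reads in stage 2 and 30 in stage 1, a ratio of 0.913 (0.555 to 1.52). The next widest, JNnc_loci0685 and JNnc_loci0686 (chromosome 5), were at 3.88 and 0.837, with intervals that overlapped. On the log2 scale the first of these pairs differed by 2.85 and the second by 2.04.

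Among the weaker pairs, JNnc_loci0126 and JNnc_loci0127 (chromosome 1) were at 2.57 and 1.88, and JNnc_loci0368 and JNnc_loci0369 (chromosome 3) at 2.28 and 1.2. JNnc_loci0273 and JNnc_loci0274 (chromosome 2, 101 and 102 nt) were at 1.18 and 0.948, each with an interval that included 1. In the pairs JNnc_loci0084 with JNnc_loci0085 and JNnc_loci0133 with JNnc_loci0134, both on chromosome 1, the second locus had only 15 and 8 reads over both libraries. JNnc_loci0888 and JNnc_loci0889 had 3 and 2, and JNnc_loci1137 and JNnc_loci1138 had 2 each.

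In the clusters that also held loci of another length, members and partners often differed. JNnc_loci0819 lay 126 nt from JNnc_loci0818 (83 nt), and the member's ratio of 0.867 stood beside 4.23 (3.72 to 4.82) for the partner. In the cluster of JNnc_loci0987 (chromosome 8) the member, at 0.529, lay between partners of 89 and 83 nt at 2.28 (2.10 to 2.48) and 2.04 (1.68 to 2.49). JNnc_loci0548 at 0.531 had a partner of 82 nt, JNnc_loci0549, at 0.995 (0.760 to 1.31).

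Elsewhere the member had a higher ratio than at least 1 partner. JNnc_loci0671 (146 nt, chromosome 5), with 91 reads in stage 2 and 24 in stage 1, was at 2.60 (1.64 to 4.26), beside 0.622 (0.542 to 0.714) for its neighbour JNnc_loci0672 of 76 nt. JNnc_loci1039 (100 nt, chromosome 9) was at 2.11 (1.73 to 2.59), beside 0.661 for JNnc_loci1038. JNnc_loci0319 stood 67 nt from JNnc_loci0318, a locus of 290 nt at 0.0947 (0.0645 to 0.135), while JNnc_loci0317 (77 nt) of the same cluster was at 2.31 (1.97 to 2.71), above the member's 1.90. JNnc_loci0847 (172 nt, chromosome 7), at 1.61 (1.31 to 1.98), lay before partners of 80 nt, JNnc_loci0848 and JNnc_loci0850, at 0.853 and 0.859. JNnc_loci0698 (101 nt, chromosome 5), with 16 reads in stage 2 and 1 in stage 1, was at 11.0 (1.70 to 459) beside JNnc_loci0697 (79 nt) at 0.362, and JNnc_loci0695 (94 nt) of that cluster was at 3.04 (2.67 to 3.47), within the member's wide interval.

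In other mixed clusters the ratios were all above 1. JNnc_loci0233 and JNnc_loci0235 (160 and 142 nt, chromosome 2, 24558302 to 24558863) were at 3.75 and 2.65 with JNnc_loci0234, of 82 nt, between them at 4.33. JNnc_loci0171 and JNnc_loci0173 (100 and 121 nt, chromosome 2) were at 1.92 and 2.14 with JNnc_loci0172 between them at 3.83. JNnc_loci0142 (chromosome 1) was at 2.23 next to JNnc_loci0143 at 2.38, and JNnc_loci0219 at 2.26 next to JNnc_loci0220 at 3.05. JNnc_loci1051 (chromosome 9) was at 2.20 next to JNnc_loci1052 at 2.59. JNnc_loci0712, JNnc_loci0713 and JNnc_loci0714 (chromosome 5) were at 1.60, 2.15 and 1.48 after JNnc_loci0711 of 89 nt at 1.62. The outer partners JNnc_loci0144 and JNnc_loci1053 were at 1.5 and 1.11. Among the rest, JNnc_loci0832 lay beside JNnc_loci0833 of only 11 reads in stage 2 and 8 in stage 1, and JNnc_loci0291 at 0.685 beside JNnc_loci0290 at 0.932. JNnc_loci0335 and JNnc_loci0338 (chromosome 3) were at 1.47 and 0.856, each with an interval that included 1. JNnc_loci0349 and JNnc_loci0871 had 3 and 4 reads in stage 2 and 5 and 2 in stage 1.

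A repeated arrangement was seen on chromosome 12, and it was chosen after its values were seen. The clusters JNnc_loci1264 to JNnc_loci1267 and JNnc_loci1268 to JNnc_loci1271, on the plus strand and 1125 nt apart, each ended in a member, of 137 and 138 nt. From the 5′ end the first cluster had lengths of 97, 81, 77 and 137 nt and the second 93, 81, 77 and 138 nt, and in both the last gap was 47 nt. The ratios ran in parallel: 0.577 and 0.787 for the first loci, 0.417 and 0.327 for the second, 2.23 and 2.31 for the next, and 1.58 (1.2 to 2.08) and 1.46 (1.04 to 2.07) for the members JNnc_loci1267 and JNnc_loci1271. The intervals of each matching pair overlapped, and no pair had equal counts: the members had 182 and 111 reads in stage 2 and 79 and 52 in stage 1.

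One member overlapped another locus. JNnc_loci0940 (142 nt, chromosome 8, 4668851 to 4668992, minus strand) lies wholly within JNnc_loci0941 (220 nt), with which it shares its lower coordinate. It had 623 reads in stage 2 and 274 in stage 1, at 1.56 (1.35 to 1.80), and JNnc_loci0941 had 825 in stage 2 and 406 in stage 1, at 1.39 (1.23 to 1.57). Whether reads were counted for both is unknown.

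Over all adjacent members with at least 20 reads each, 33 pairs, the ratios differed by a median of 0.65 on the log2 scale, from 0.04 to 2.85. Pairs of such members from different clusters differed by 0.76, so lying in the same cluster went with only slightly closer ratios. The intervals of 11 of the 33 pairs did not overlap, and 8 pairs differed by at least 1. The 20 pairs of a member and a partner of another length differed by a median of 0.75, with 8 pairs apart. Neighbouring pairs share loci, so these pairs are not independent.

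**Figure D5:**
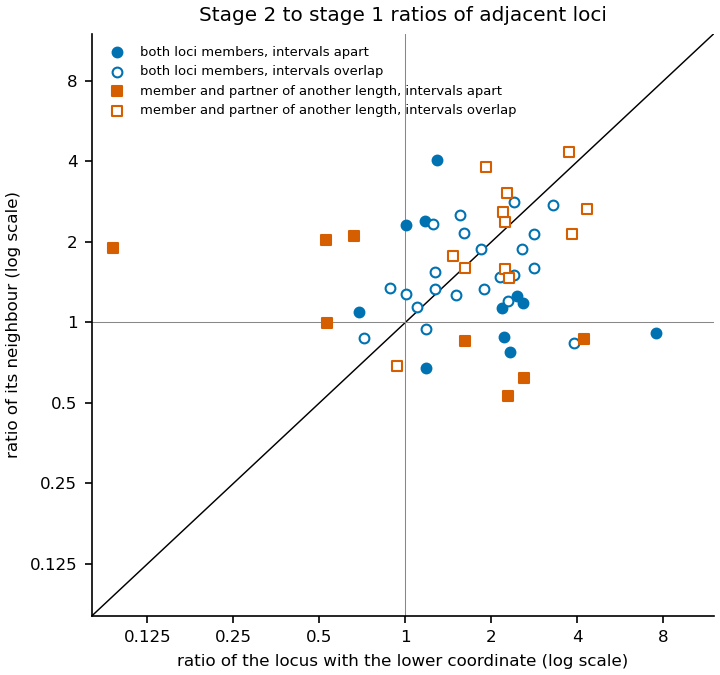
Stage 2 to stage 1 ratio of RPM of adjacent loci with at least 20 reads each, on log axes, the locus with the lower coordinate on the x axis and its neighbour on the y axis; circles are pairs of members and squares pairs of a member and a partner of another length. Filled symbols, 11 circles and 8 squares, have counting intervals that do not overlap, and the diagonal marks equal ratios.

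Taking clusters as a whole, 25 held 2 or more members with at least 20 reads. In 16 of them all such members had ratios above 1, in 1 all were below 1, and in 8 they were split; set against 1.39 instead of 1, the counts were 8, 3 and 14. Every such member was at least 2-fold higher in 4 clusters, those of JNnc_loci0229, JNnc_loci0233, JNnc_loci0332 and JNnc_loci0570. Of the 80 members with at least 20 reads, 81.25% were above 1 and 41.25% at least 2-fold higher. These cluster counts by themselves therefore do not show agreement within clusters. In 44 clusters with at least 20 reads in each library, the same locus was the most abundant in both libraries in 36. Members in clusters of members alone and members in mixed clusters had similar summed ratios, 1.34 (1.29 to 1.38) and 1.32 (1.26 to 1.37). Their median log2 ratios were less alike, at 0.60 and 0.80 over the 56 and 24 members with at least 20 reads.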

How the data were processed

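For either library the authors deposited a list of loci without header lines: position, name, strand and a number. That number is always whole, and its values led to its use as a raw count of reads, not normalized by the authors. Neither aligner nor genome build is given in the sources used here. Per the labels' protocols, RNA of 50 to 500 nt was sequenced on the 454 platform.

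Lists were joined by locus name, with 0 for a locus missing from 1 list. Starts were raised by 1, assuming the BED convention. Loci were chained on 1 strand with gaps of at most 500 nt before members were picked. RPM used the sum of each list. Ratios have exact conditional binomial 95% intervals, shares exact Clopper-Pearson intervals (scipy 1.17.1, Python 3.11.15); log2 ratios had 0.5 reads added to each count. No test was made, since either stage has a single library. Intervals treat reads as independent molecules. A call is a ratio of at least 2 or at most 0.5 where both counts sum to at least 20. The interval and chaining steps were tested on simulated data.

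Members and lists were chosen with earlier results of these data known. Named loci were, for each library, the 8 of highest count, the 5 highest and 5 lowest ratios, members of 10 or more reads in a single library (there were 0), clusters of 3 or 4 members alone, the 3 clusters with most member reads and those nearest the length limits. The other clusters were described after their values were seen. Gap, strand, length, scaling, read minimum and library total were varied.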

Additional observations from a re-analysis of the deposited data

How the results depend on the processing

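Scaled to the median locus, the summed ratio reversed to 0.958, calls of members at least 2-fold higher numbered 11 and lower 5, by construction of that scaling. With a gap limit of 250 or 1000 nt the lower calls numbered 1, and chained without regard to strand 2; with library totals taken without 13 loci that share a single length they numbered 2, the higher calls 23 and not 33, and the summed ratio was 1.15. Members' share of stage 2 and stage 1 reads was 16.1% and 11.9% with loci of equal length and counts entered once, and 15.6% and 13.6% without those 13 loci, since the totals shrink. The main shares were 14.6% and 11.0%, so without those 13 loci the stage 1 total shrank more than the stage 2 total. The share of calls over all loci with those totals is not given here. Of the loci named by the rules above, those whose ratio reversed under median scaling were JNnc_loci0090 (0.791), JNnc_loci0091 (0.821), JNnc_loci0459 (0.968), JNnc_loci0528 (0.903), JNnc_loci0552 (0.913), JNnc_loci0553 (0.957), JNnc_loci0582 (0.987, on 3 reads), JNnc_loci0607 (0.722), JNnc_loci0608 (0.918), JNnc_loci0897 (0.962) and JNnc_loci1027 (0.850). With totals lacking those 13 loci, JNnc_loci0090, JNnc_loci0091 and JNnc_loci0607 of these reversed to 0.95, 0.985 and 0.866. Other members described above with ratios between 1 and 1.39, such as JNnc_loci0178 (0.727), also reversed under median scaling. Under the alternatives other than median scaling the summed ratio was 1.15 to 1.42. Leaving out the 6 members equal in length and counts to a locus of the chloroplast or of the excluded regions was chosen after seeing the data. So were leaving out the overlapping member and adding 0.5 reads. No paired analysis was possible because the series holds a single library for either stage, which also means that none could be left out.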

Other observations

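The RefSeq gene table of assembly ASM3414082v1, whose coordinates were not used because the files' build is not given, lists 611 snoRNA genes, of which 375 are 100 nt or longer and under 200 nt and 223 are 70 to 99 nt long. Of the 375, 149 (39.7%) are at least 120 and under 160 nt and the median is 108 nt. Of the 100 members, 71 fall in that span and their median is 138 nt. The sets are unlike, because the RefSeq genes were picked by length alone and the members also by clustering. No member was matched to a RefSeq gene.

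Ratios were also compared at like coverage. Members with 20 to 99 reads over both libraries had a median log2 ratio of 0.78, those with 100 to under 300 reads 0.56 and those with 300 or more 0.89, beside 0.50, 0.46 and 0.22 for the other loci in the same bins. Of members with 20 to 99 reads, 10 of 22 were at least 2-fold higher in stage 2, beside 51 of 142 other loci. From 100 to under 300 reads it was 12 of 30, beside 46 of 129. At 300 or more reads it was 11 of 28, beside 29 of 132. At least 2-fold lower were 21, 15 and 20 of the other loci in these bins and 0 members. The lowest members, JNnc_loci0987 at 0.529 and JNnc_loci0548 at 0.531, lay close to that limit.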
